A study of Bos taurus with 6 samples.

Results

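The genes described here carry glucose into the cell, break it down to pyruvate, and send that pyruvate to lactate or to the mitochondrion. A set of 38 genes was named by function, from glucose transporters to pyruvate dehydrogenase kinases, and every probe set whose single gene symbol in the array annotation is one of them was taken. Of the 38 genes, 35 have such a probe set, out of 9155 genes read by the array. HK2, BPGM and PDK1 have no probe set under their symbol and were not analysed here. RNA was measured on 6 Affymetrix bovine arrays. Cumulus cells from large follicles, at least 8 mm wide, are on 3 arrays, and the submitters call their cumulus-oocyte complexes competent. Cells from small follicles, 1 to 3 mm wide, are on the other 3, and their complexes are called incompetent. The sample titles number the groups under the word treat, but the labels describe no treatment and no other difference between the groups. All came from ovaries of crossbred Bos indicus x Bos taurus cows collected at slaughter. Complexes had a homogeneous cytoplasm and at least 3 compact cell layers. The cells were stripped off by pipetting and pooled. The labels call the pools biological replicates but give neither the cows' age nor how many animals or complexes each pool holds. The p-values therefore cover pool-to-pool spread alone.

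Cumulus cells are the somatic cells packed around the oocyte and joined to it by gap junctions. The oocyte uses little glucose itself. Cumulus cells take glucose up, run glycolysis, and hand pyruvate and lactate to the oocyte, which oxidises them in its mitochondria. Glucose enters through SLC2A transporters, is trapped as a phosphate ester, committed by phosphofructokinase, and split and oxidised to pyruvate. Lactate dehydrogenase then converts pyruvate to lactate for export, or pyruvate dehydrogenase feeds it to the TCA cycle unless its kinases switch the complex off. The comparison asks which of these steps differ in transcript level with follicle size, which the study uses as its model of oocyte competence.

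Large-follicle cumulus cells had more transcript of 2 glucose transporters, of most glycolytic enzymes, of the lactate-forming LDHA and the lactate exporter SLC16A3, and of the kinases PDK3 and PDK4. They had less of 2 subunits of pyruvate dehydrogenase, PDHA1 and DLAT. Values are log2 probe set signals, and a gene was read from its probe set with the highest mean over the 6 arrays. In a limma fit over all 24016 probe sets with Benjamini-Hochberg adjustment at a threshold of 0.05, 18 of the 35 genes were higher, 2 were lower and 15 did not pass. Over all 9155 genes, 7.08% were called higher and 8.3% lower. The median difference, large minus small, was 0.50 over the 35 genes and 0.01 over all genes. The groups did not overlap in 23 genes with large-follicle arrays above (17.6% of all genes) and in 3 with large-follicle arrays below (18.9% of all genes). Among the 35, 32 had a mean signal at or above the median of all probe sets. In genes that bright, 9.13% were called higher and 10.5% lower. With an RNA index, explained below, as a covariate, 2 of the 18 higher calls and 0 lower calls remained. The PDHA1 call was also lost when any single array was left out, and the DLAT call for most arrays. As bulk pools, the arrays cannot tell fewer cells of a type from less RNA per cell.

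**Figure D1:**
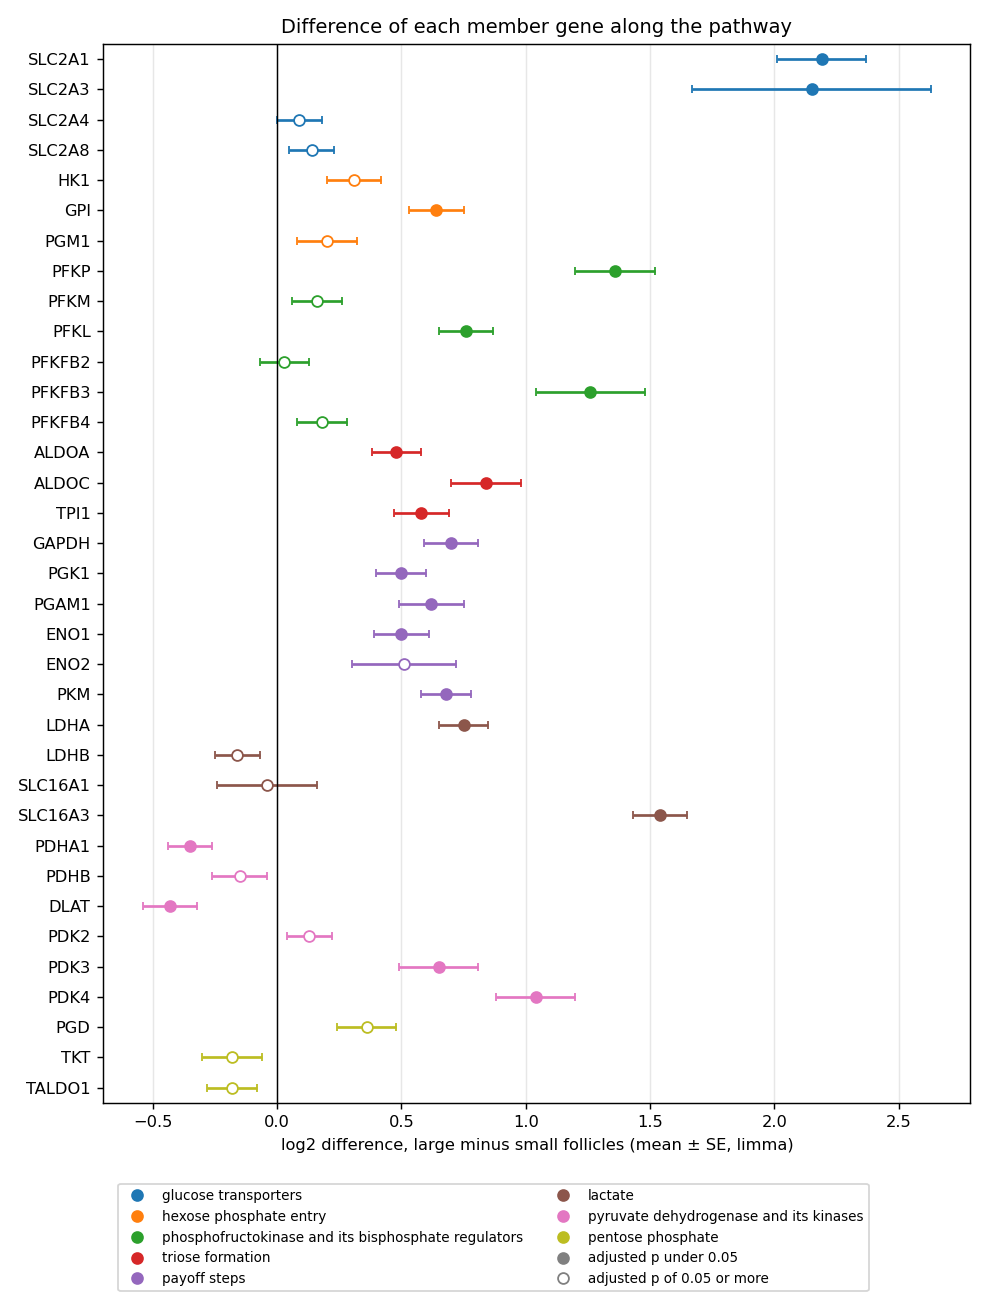
Log2 difference between large-follicle and small-follicle arrays for the 35 genes, from glucose entry at the top to the pentose phosphate branch at the bottom, as limma estimate ± SE with n = 3 arrays per group. Filled points passed the adjusted threshold. The 18 higher genes run from 0.48 (ALDOA) to 2.19 (SLC2A1), and the 2 lower ones are PDHA1 and DLAT.

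Most markers of the labelled cell type gave clear signals, and they too differed between the groups. The granulosa and cumulus genes FSHR (8.35 against 7.79), INHA (13.38 against 12.96) and CYP19A1 (12.25 against 10.12, large-follicle mean first) rose. So did INHBA (14.07 against 12.93), CYP11A1 (11.33 against 9.61) and NR5A2 (9.35 against 8.66). These are 6 of 12 granulosa and cumulus genes measured (7.08% of all genes were called higher). GATM fell (9.43 against 10.63), AMH (10.95 against 11.01) did not pass, and FOXL2 was dim (4.89 against 4.58) and did not pass. The oocyte genes GDF9 (4.81 and 4.77) and ZP2 (3.39 and 3.38) were dim, and 0 of 7 oocyte genes passed in limma, with 0 at an unadjusted p of 0.05. Red cells live on glycolysis and leukocytes use it heavily. HBB, a red cell gene, read 3.73 in large-follicle arrays and 3.75 in small-follicle arrays, and the leukocyte gene PTPRC 3.57 and 3.49. These means lay under the lower quartile of probe set means (3.83), as did 5 of 8 erythrocyte genes but only 2 of 14 leukocyte genes. HBA, another red cell gene, was brighter, at 5.32 in large-follicle arrays and 4.92 in small-follicle arrays. Its groups stood 0.03 apart and it did not pass (limma adjusted p = 0.0851). Of 8 measured erythrocyte genes 1 rose (7.08% of all genes). It was HBM, by 1.54 ± 0.11, at 7.54 in large-follicle arrays and 6.00 in small-follicle arrays. The mean of the 8 genes in each array was 4.26 to 4.42 in large-follicle arrays and 3.98 to 4.24 in small-follicle arrays. Of 14 leukocyte genes 2 rose (7.08% of all genes), CORO1A (4.30 against 3.67) and LCP1 (4.78 against 3.89). The mean of the 14 genes in each array was 4.43 to 5.27 in large-follicle arrays and 4.18 to 4.65 in small-follicle arrays. All 14 had a higher mean in large-follicle arrays, with a median difference of 0.27 (0.01 over all genes). Large-follicle replicate 1 stood above every other array in the myeloid genes LAPTM5 (7.01), CSF1R (7.10), CD14 (6.70), TYROBP (6.41) and CD68 (6.06). With that array dropped, 14 of the 35 member genes were called higher. Dropping replicate 2 of the same group instead gave 13, and dropping replicate 3 gave 14. Dropping 1 small-follicle array gave 15 to 18. Small-follicle replicate 3 came second in LAPTM5 (6.02), TYROBP (5.57) and CD68 (5.16), but not in CSF1R or CD14. Of 12 theca and stroma genes 1 rose (7.08% of all genes), TAGLN, and of 9 endothelial genes 1 fell (8.3% of all genes), TEK. At an unadjusted p of 0.05 in limma, 4 theca and stroma genes were higher and 1 was lower. No share of all genes at an unadjusted p was computed, here or for the other lists. Such counts are therefore not a result about a list. Some theca and stroma genes were bright, such as INSL3 (9.41 in large-follicle arrays and 9.38 in small-follicle arrays) and LUM (8.02 and 8.09). PDGFRA read 8.40 and 7.03 without overlap and did not pass (limma adjusted p = 0.0683). An RNA index, the signal at the 3' end of a control transcript minus that at its 5' end, was averaged over 6 bovine transcripts and came to 1.98 ± 0.19 in large-follicle arrays and 2.46 ± 0.27 in small-follicle arrays (SD, n = 3 each). The 2-sided exact permutation p was 0.1, which is the floor of this design. Without GAPDH, itself one of the member genes, the index was 2.32 ± 0.21 in large-follicle arrays and 2.76 ± 0.26 in small-follicle arrays (exact permutation p = 0.2), and the groups overlapped, with large-follicle arrays up to 2.51 and small-follicle arrays down to 2.47. The part of the other cell types in the results was not tested.

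Glucose transporters came in 2 that rose and 2 that did not pass. SLC2A1, the widely expressed basal glucose carrier, read 11.51, 11.87 and 11.71 in the large-follicle arrays, against 9.26, 9.35 and 9.91 in the small-follicle arrays. It was 4.56-fold higher (log2 difference 2.19 ± 0.18 SE, limma adjusted p = 0.000906), and the groups lay 1.60 apart at their nearest arrays. SLC2A3, a high-affinity carrier best known from neurons, read 7.35, 8.01 and 7.39 in large-follicle arrays, against 4.17, 5.87 and 6.26 in small-follicle arrays. The groups again stood apart, but the small-follicle arrays were spread widely, with replicate 1 far below the others. Its difference was 2.15 ± 0.48 (adjusted p = 0.023) and 1.52 without small-follicle replicate 1. The call was lost without large-follicle replicate 1 (2.27), 2 (1.94) or 3 (2.25). SLC2A4, the insulin-responsive carrier of muscle and fat, averaged 4.31 ± 0.10 in large-follicle arrays and 4.22 ± 0.01 in small-follicle arrays, and SLC2A8, a mostly intracellular carrier, 7.43 ± 0.07 and 7.29 ± 0.03 (SD, n = 3 each). Neither passed, with 95% intervals of the log2 difference from -0.13 to 0.31 for SLC2A4 and from -0.07 to 0.35 for SLC2A8.

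At the entry of hexose phosphates, GPI, which turns glucose phosphate into fructose phosphate, was the 1 of 3 measured genes that rose. GPI read 11.87, 11.98 and 12.04 in large-follicle arrays, against 11.15, 11.48 and 11.35 in small-follicle arrays, a difference of 0.64 ± 0.11 (limma adjusted p = 0.01). Every large-follicle array was above every small-follicle array. HK1, the ubiquitous hexokinase that traps glucose, read 9.24, 9.50 and 9.52 against 9.01, 9.19 and 9.14. Its groups did not overlap either, but the gap was 0.05 and the difference of 0.31 ± 0.11 did not pass (adjusted p = 0.12). PGM1, which links glucose phosphate to glycogen, differed by 0.20 ± 0.12 and its groups overlapped.

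Phosphofructokinase, the committing step, differed by subunit. PFKP, the platelet-type subunit, read 8.96, 9.12 and 8.74 in large-follicle arrays, against 7.27, 7.63 and 7.85 in small-follicle arrays. It was 2.56-fold higher (1.36 ± 0.16, limma adjusted p = 0.00252). PFKL, the liver-type subunit, rose by 0.76 ± 0.11, at 9.62, 9.74 and 9.98 in large-follicle arrays against 8.97, 9.08 and 9.02 in small-follicle arrays. PFKM, the muscle-type subunit, averaged 7.65 ± 0.13 in large-follicle arrays and 7.49 ± 0.07 in small-follicle arrays, did not pass, and its highest small-follicle array equalled its lowest large-follicle array at 7.56. The 2 other PFKM probe sets read 0.24 and -0.00 and did not pass.

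The PFKFB enzymes make and remove the fructose bisphosphate signal that activates phosphofructokinase. PFKFB3, the form with the strongest kinase activity, read 11.30, 11.67 and 11.33 in large-follicle arrays, against 9.84, 9.98 and 10.69 in small-follicle arrays. It was 2.40-fold higher (1.26 ± 0.22, limma adjusted p = 0.0088), with small-follicle replicate 3 nearest to the large-follicle arrays. A dimmer PFKFB3 probe set also rose, by 0.72 ± 0.15, and the dimmest read 0.10 and did not pass. PFKFB2, the heart-type form, was read differently by its 3 probe sets. Its brightest probe set read 0.03 ± 0.10 with overlapping groups and the dimmest 0.08, whereas the other fell by 0.42 (limma adjusted p = 0.0252), at 5.14 ± 0.06 in large-follicle arrays and 5.55 ± 0.09 in small-follicle arrays (SD, n = 3 each). PFKFB4 averaged 4.87 and 4.69, a low signal, and did not pass.

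All 3 genes of triose formation rose. ALDOC, the brain-type aldolase, read 10.62, 10.75 and 10.62 in large-follicle arrays, against 9.56, 9.85 and 10.07 in small-follicle arrays (0.84 ± 0.14, limma adjusted p = 0.00733). ALDOA, the aldolase of most tissues, read 12.63, 12.75 and 12.79 against 12.15, 12.30 and 12.29. The groups of both aldolases stood apart, and the ALDOA difference was smaller at 0.48 ± 0.10. Its call was lost without large-follicle replicate 2 (0.46) or small-follicle replicate 1 (0.43). TPI1, which interconverts the triose phosphates, rose by 0.58 ± 0.11, at 12.77 ± 0.13 in large-follicle arrays and 12.19 ± 0.14 in small-follicle arrays (SD, n = 3 each).

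In the steps that recover energy, 5 of 6 measured genes rose, all by similar amounts. GAPDH, the oxidising step and a common reference gene in expression work, read 13.91, 14.06 and 14.02 in large-follicle arrays, against 13.15, 13.28 and 13.45 in small-follicle arrays (0.70 ± 0.11, limma adjusted p = 0.00589). PKM, pyruvate kinase, read 8.08, 8.18 and 8.29 against 7.38, 7.57 and 7.55 (0.68 ± 0.10). Both genes were higher in each large-follicle array than in any small-follicle array. PGAM1, the mutase, rose by 0.62 ± 0.13, PGK1, the first ATP-forming kinase, by 0.50 ± 0.10 and ENO1, the enolase of most tissues, by 0.50 ± 0.11. These 3 calls had limma adjusted p of 0.02 (PGAM1), 0.0133 (PGK1) and 0.0194 (ENO1). They were lost for PGAM1 without large-follicle replicate 2 (0.57) or 3 (0.62), for PGK1 without large-follicle replicate 1 (0.48), and for ENO1 without large-follicle replicate 1 (0.52), 2 (0.49) or 3 (0.48) or small-follicle replicate 1 (0.45) or 3 (0.45). ENO2, the neuronal enolase, had the only mean under the lower quartile among the 35 genes, at 3.80 ± 0.25 against 3.28 ± 0.40, and its 0.51 ± 0.21 did not pass.

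GAPDH is also read by 3 control probe sets spaced along its transcript, which lie outside the fit. The difference was 0.33 at the 3' end (14.10 ± 0.03 in large-follicle arrays and 13.76 ± 0.06 in small-follicle arrays), 0.73 in the middle (13.98 ± 0.11 and 13.25 ± 0.23) and 1.00 at the 5' end (13.84 ± 0.14 and 12.84 ± 0.37, SD, n = 3 each). All 3 were higher in large-follicle arrays, and the size depended on where the transcript was read. The highest value of the whole table is 14.39, so GAPDH in large-follicle arrays lay near the top of the scale. The other 5 control transcripts differed, at the 3' and the 5' end in turn, by 1.02 and 1.49 for actin, -0.29 and 0.17 for ef1a, 0.02 and 0.38 for cyclophilin, 0.06 and 0.53 for eIF-4E, and -0.17 and 0.29 for GST. In all 6 transcripts, GAPDH included, the difference was higher at the 5' end than at the 3' end.

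Among the enzymes of the trunk of glycolysis, 8 (GPI, ALDOA, TPI1, GAPDH, PGK1, PGAM1, ENO1 and PKM) rose by 0.48 to 0.70, or 1.39-fold to 1.63-fold. This group was drawn up after the values were seen. It leaves out HK1 (0.31), PFKM (0.16) and ENO2 (0.51), which did not pass. PFKL (0.76), ALDOC (0.84) and PFKP (1.36), also left out, rose by more. At least 2-fold rises were found in 6 of the 35 genes, where 1.56% of all genes were called with such a rise. The 6 were the carriers SLC2A1, SLC2A3 and SLC16A3, the subunit PFKP, and the regulatory enzymes PFKFB3 and PDK4.

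**Figure D2:**
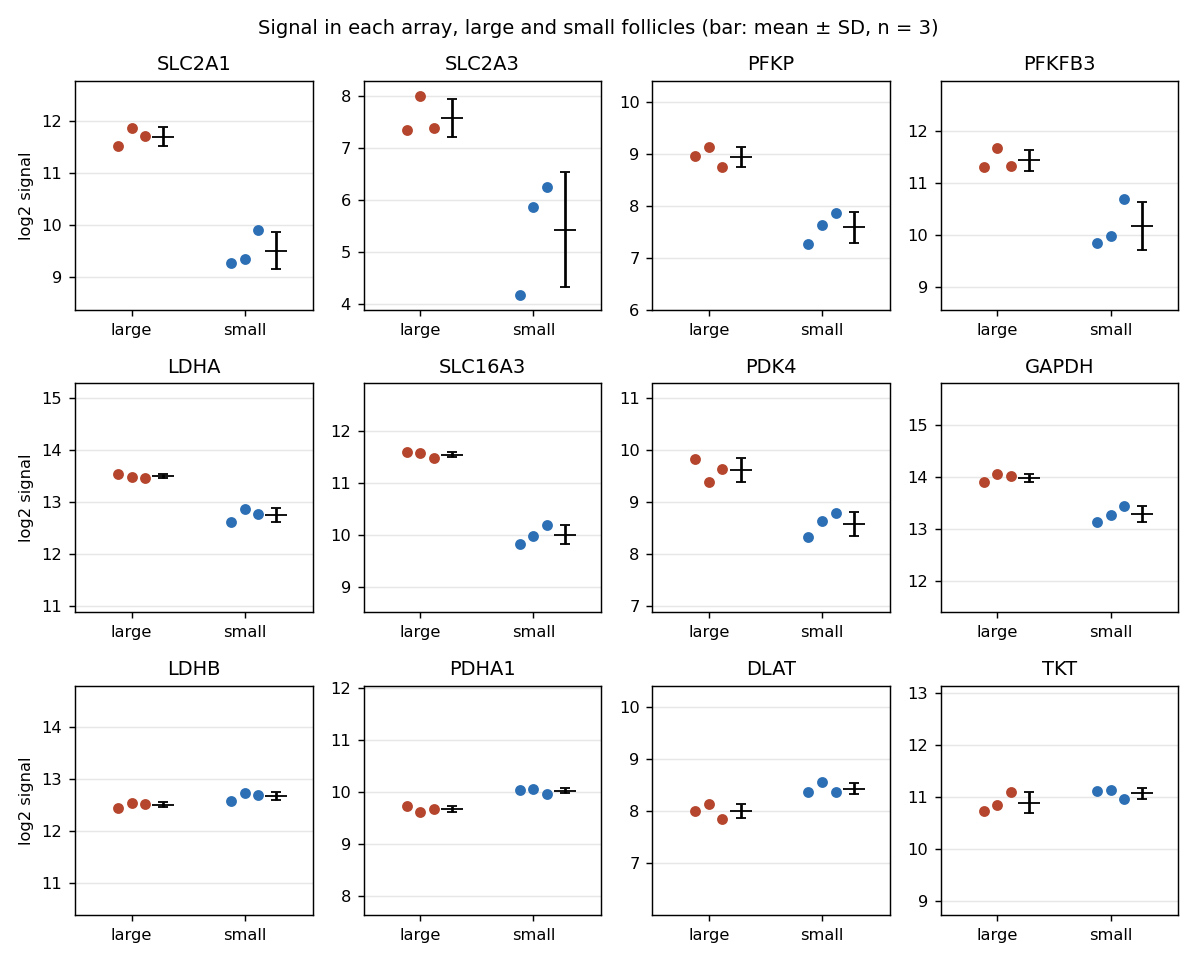
Log2 signal of 12 of the genes in each array, large-follicle arrays left in red and small-follicle arrays right in blue, with mean ± SD (n = 3) beside the points. Every panel spans the same number of log2 units. The groups of SLC2A1 and SLC16A3 lie far apart, and LDHA is tight within each group. SLC2A3 is scattered in small-follicle arrays, and PDHA1 and DLAT are lower in large-follicle arrays.

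Lactate genes split by isoform. LDHA, the lactate dehydrogenase subunit that favours lactate formation, read 13.54, 13.48 and 13.46 in large-follicle arrays, against 12.60, 12.86 and 12.76 in small-follicle arrays. It was 1.69-fold higher (0.75 ± 0.10, limma adjusted p = 0.00348). Both dimmer LDHA probe sets read less, at 0.37 and 0.36, did not pass and had overlapping groups. LDHB, the subunit that favours the return of lactate to pyruvate, read 12.44, 12.54 and 12.52 against 12.57, 12.72 and 12.69. The LDHB groups did not overlap, by a margin of 0.03, and the difference of -0.16 (95% interval -0.37 to 0.05) did not pass.

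SLC16A3, a monocarboxylate carrier known for lactate export from glycolytic cells, read 11.58, 11.56 and 11.48 in large-follicle arrays, against 9.83, 9.98 and 10.19 in small-follicle arrays. It was 2.91-fold higher (1.54 ± 0.11), with the smallest adjusted p of the 35 genes (limma adjusted p = 0.00079). Its other probe sets rose too, by 0.93 ± 0.15 and 0.46 ± 0.10, both at lower signals. SLC16A1, the widely expressed carrier that moves lactate and pyruvate either way, read 7.77, 7.80 and 7.89 against 7.94, 8.25 and 7.39. Here the small-follicle arrays lay on both sides of the large-follicle arrays, and the 95% interval of the difference ran from -0.49 to 0.41.

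Pyruvate dehydrogenase converts pyruvate to acetyl-CoA, and its PDK kinases inactivate it by phosphorylating the subunit that PDHA1 encodes. PDK4, a kinase known to be induced by fasting, read 9.83, 9.38 and 9.64 in large-follicle arrays, against 8.32, 8.63 and 8.78 in small-follicle arrays. It was 2.06-fold higher (1.04 ± 0.16, limma adjusted p = 0.00513), and its other probe sets read 1.42 and 1.21, both called. PDK3, a kinase of narrower tissue range, averaged 7.93 ± 0.20 in large-follicle arrays and 7.28 ± 0.29 in small-follicle arrays (SD, n = 3 each), a difference of 0.65 ± 0.16 (limma adjusted p = 0.0359). The nearest PDK3 arrays of the groups were 0.17 apart, and the call was lost without large-follicle replicate 1 (0.74), 2 (0.65) or 3 (0.55) or small-follicle replicate 1 (0.51) or 2 (0.65). PDK2, the kinase found in most tissues, averaged 8.05 ± 0.08 and 7.92 ± 0.02 (SD, n = 3 each) and did not pass.

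Of the 3 member genes that encode subunits of the complex, 2 fell. PDHA1, the catalytic alpha subunit, read 9.72, 9.61 and 9.67 in large-follicle arrays, against 10.04, 10.05 and 9.96 in small-follicle arrays. DLAT, the acetyl transferase core, read 8.01, 8.14 and 7.86 against 8.37, 8.56 and 8.38. Both sets of groups stood apart, though by only 0.24 for PDHA1 and 0.23 for DLAT. PDHA1 fell by 0.35 (SE 0.09, limma adjusted p = 0.0387) and DLAT by 0.43 (SE 0.11, adjusted p = 0.0376). The PDHA1 call was lost when any 1 array was left out (-0.38 to -0.32), and its 3 dimmer probe sets, at 3.12 to 4.30, read -0.25, 0.01 and 0.21 and did not pass. The DLAT call was lost without large-follicle replicate 1 (-0.44) or 3 (-0.36) or small-follicle replicate 1 (-0.47), 2 (-0.37) or 3 (-0.46). A second DLAT probe set fell by 0.61 (SE 0.12, adjusted p = 0.0152), and the dimmest read -0.36 and did not pass. PDHB, the beta subunit, averaged 8.96 ± 0.12 in large-follicle arrays and 9.11 ± 0.10 in small-follicle arrays, with overlapping groups. Both remaining subunits, read from the list of genes around pyruvate, did not pass: PDHX, which holds the complex together, differed by -0.33 (adjusted p = 0.0857) and DLD, the shared dehydrogenase, by -0.06 (adjusted p = 0.776). That makes 2 of 5 measured subunits called lower, where 8.3% of all genes were called lower.

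**Figure D3:**
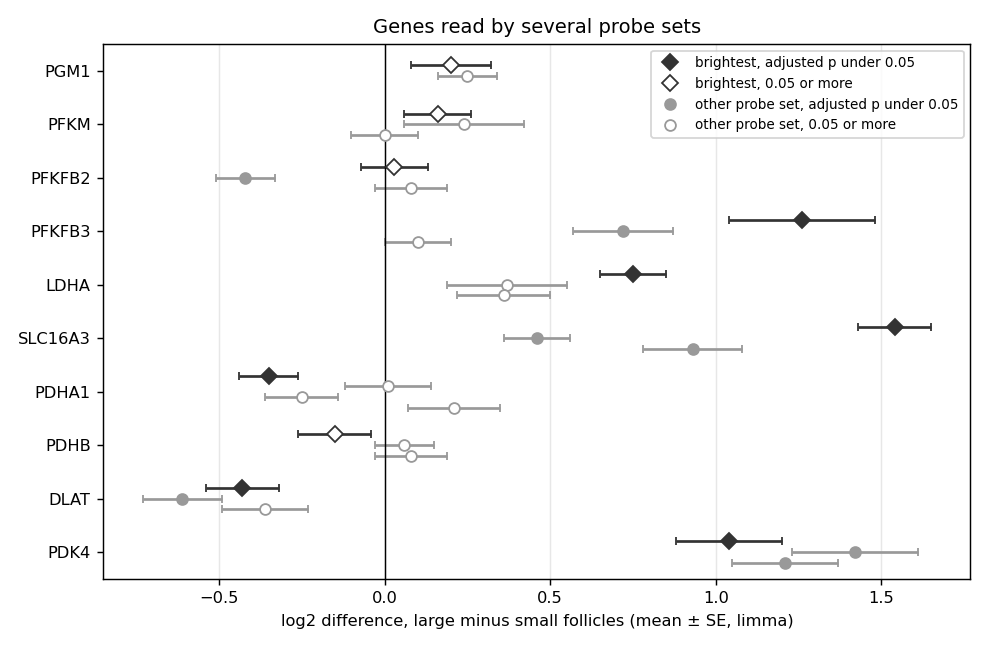
Log2 difference between large-follicle and small-follicle arrays (limma estimate ± SE, n = 3 per group) for each probe set of the 10 genes read by several. Diamonds are the brightest probe set of a gene, circles the others, and filled marks passed the adjusted threshold. SLC16A3 and PDK4 are called higher by all 3 of their probe sets, while PFKFB2 has 1 called lower beside 2 near 0.

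Of the pentose phosphate genes, which make NADPH and ribose from glucose phosphate, 0 of 3 passed in the limma fit, and at an unadjusted p of 0.05 PGD was the 1 gene higher. PGD, a dehydrogenase that makes NADPH, read 10.66, 10.72 and 10.75 in large-follicle arrays, against 10.19, 10.60 and 10.25 in small-follicle arrays. The groups stood 0.06 apart, and the difference of 0.36 ± 0.12 had an adjusted p of 0.0993. It passed without small-follicle replicate 2, at 0.49. TKT, transketolase, differed by -0.18 ± 0.12, and TALDO1, transaldolase, by -0.18 ± 0.10.

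Isoforms were compared by how unequally they differed between the groups, as the log2 ratio of a pair within each array. A level of 1 probe set cannot be set against that of another, so only the shift of a ratio is read. Of 20 pairs listed, 15 could be measured, and in 11 of them the ratios did not overlap between the groups. No share for pairs over the whole array was computed. Single genes did not overlap in 17.6% of all genes with large-follicle arrays above and 18.9% with them below. The pairs were chosen with earlier results known, and several share a gene, such as SLC2A1, PFKFB3 or LDHA. The count is therefore not a result about isoforms. The LDHA to LDHB ratio, on the log2 scale, was 1.10, 0.94 and 0.94 in large-follicle arrays, against 0.03, 0.14 and 0.07 in small-follicle arrays. It shifted by 0.91, well beyond the spread within either group (SD 0.09 and 0.06). The SLC16A3 to SLC16A1 ratio shifted by 1.58, at 3.81, 3.76 and 3.59 in large-follicle arrays against 1.89, 1.73 and 2.80 in small-follicle arrays. PFKP shifted against PFKM by 1.20 and PFKL against PFKM by 0.60. PFKP against PFKL shifted by 0.60 with overlapping arrays. PFKFB3 shifted against PFKFB2 by 1.23, PDK4 against PDK2 by 0.91, and ALDOC against ALDOA by 0.36. LDHA shifted by 1.10 against PDHA1, a pair chosen to set lactate formation beside mitochondrial entry. SLC2A1 shifted by 2.10 against SLC2A4 and 2.05 against SLC2A8, but by 0.04 against SLC2A3, with overlapping arrays. ENO2 shifted by 0.02 against ENO1 and PDHA1 by -0.20 against PDHB, both with overlap. With the mean of a gene's probe sets in place of the brightest, LDHA against LDHB shifted by 0.65 and LDHA against PDHA1 by 0.59. By that mean SLC16A3 against SLC16A1 shifted by 1.02 and PFKFB3 against PFKFB2 by 0.80. PDK4 against PDK2 (1.09), PFKP against PFKM (1.23) and PFKL against PFKM (0.63) shifted further by that mean. PFKFB4 against PFKFB3 shifted by -0.52 that way and by -1.09 with the brightest probe sets. Each of the 11 pairs reached p = 0.1 in the 2-sided exact permutation test, the smallest possible, and 0.14 after Benjamini-Hochberg adjustment over 15 pairs. No pair can pass a threshold of 0.05 in this design.

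**Figure D4:**
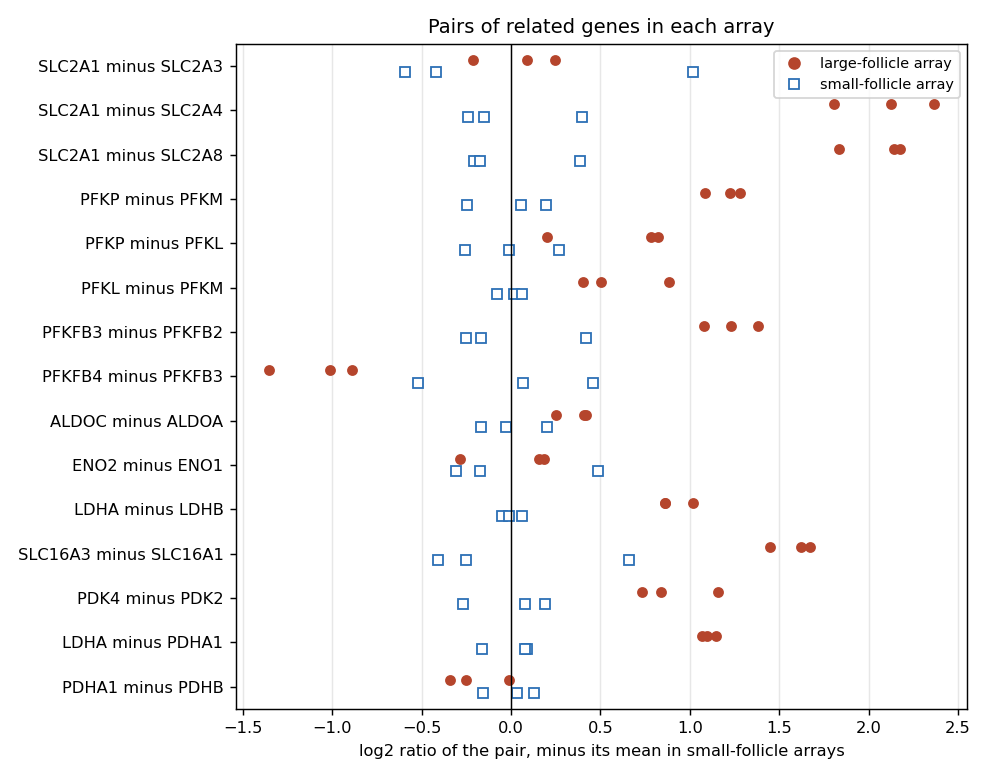
Log2 ratio of 15 pairs of related genes in each array, centred on its mean in small-follicle arrays. Filled circles are the 3 large-follicle arrays and open squares the 3 small-follicle arrays. LDHA against LDHB and LDHA against PDHA1 form tight, separated clusters, and SLC2A1 against SLC2A3 and ENO2 against ENO1 are intermixed.

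Averaged over the 35 genes, the arrays deviated from each gene's mean by 0.20, 0.29 and 0.28 in large-follicle replicates 1, 2 and 3, against -0.39, -0.20 and -0.18 in small-follicle replicates 1, 2 and 3. All 3 large-follicle arrays lay above 0 and all 3 small-follicle arrays below it, with small-follicle replicate 1 lowest. Over all genes these means lay between -0.01 and 0.02.

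With the RNA index as a covariate in limma, the fit left 3 of the 35 genes called higher and 0 lower (genes of the whole array, 57 higher and 45 lower). Of the 18 genes called without it, SLC2A1 (1.63 ± 0.15, adjusted p = 0.0185) and SLC16A3 (1.33 ± 0.16, adjusted p = 0.0374) passed. ENO2 was added at 1.16 ± 0.17 (adjusted p = 0.0466). All 20 genes called without the index kept their sign, the median difference of the 18 higher ones was 0.54 with the index and 0.73 without it, and their median SE 0.17 and 0.11. With the index SLC2A3 read 0.76, PFKFB3 0.56, PDK3 0.26, PDHA1 -0.25 and DLAT -0.48, none of which passed.

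Other genes around the pathway were read from lists drawn up with earlier results of these data known. Further isoenzymes and transporters, such as SLC2A2 and LDHC, numbered 17 measured of 30 listed. In the limma fit 0 passed, against 1 higher and 2 lower at an unadjusted p of 0.05, and the median difference was 0.02. BSG, the chaperone that brings monocarboxylate carriers to the membrane, averaged 11.23 ± 0.19 in large-follicle arrays and 11.27 ± 0.03 in small-follicle arrays.

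Around pyruvate, 19 of 21 listed genes were measured, and 2 fell, near the share over all genes (8.3%), with a median difference of -0.14 over the 19. PCK2, the mitochondrial enzyme that forms phosphoenolpyruvate, read 6.57, 6.37 and 7.09 in large-follicle arrays, against 7.85, 7.65 and 7.30 in small-follicle arrays (-0.92 ± 0.20, limma adjusted p = 0.0229). GPT2, which exchanges pyruvate and alanine in mitochondria, read 7.81, 7.94 and 8.05 against 8.66, 8.58 and 8.17 (-0.54 ± 0.14, adjusted p = 0.0447). The groups of both stood apart, but the calls were lost without large-follicle replicate 1 or 2 or small-follicle replicate 1 or 2, and for GPT2 also without large-follicle replicate 3. Leaving out 1 array gave -1.13 to -0.77 for PCK2 and -0.69 to -0.44 for GPT2. With the RNA index as a covariate PCK2 read -0.47 (limma adjusted p = 0.391) and GPT2 -0.27 (adjusted p = 0.507), and neither passed. The pyruvate carrier subunits MPC1 (-0.33 ± 0.15) and MPC2 (0.20 ± 0.09) did not pass.

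In the side branches of glycolysis 19 of 25 listed genes were measured and 3 fell (8.3% of all genes), with a median difference of -0.01. SORD, which makes fructose from sorbitol, read 7.14, 7.08 and 7.07 in large-follicle arrays, against 8.10, 8.06 and 8.07 in small-follicle arrays. At -0.98 ± 0.09 (limma adjusted p = 0.00105) it was the steadiest of them, with an SD of 0.04 in large-follicle arrays and 0.02 in small-follicle arrays, and it passed in all 20 alternatives. PHGDH, the first enzyme of serine synthesis from a glycolytic intermediate, read 8.55, 8.34 and 9.04 against 9.82, 9.94 and 9.50 (-1.11 ± 0.19, adjusted p = 0.00869). PSAT1, the next enzyme of that route, read 6.68, 6.26 and 7.26 against 8.16, 7.90 and 7.38 (-1.08 ± 0.27, adjusted p = 0.0355). All 3 genes were lower in every large-follicle array than in any small-follicle array. The PSAT1 call was lost without large-follicle replicate 1 or 2 or small-follicle replicate 1 or 2 (-1.34 to -0.84 over all left-out arrays), and with the mean of its probe sets. With the RNA index as a covariate PHGDH read -0.75 (limma adjusted p = 0.202) and PSAT1 -0.37 (adjusted p = 0.559), and neither passed.

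Among regulators of glycolytic genes, 16 of 25 listed were measured and 1 rose, near the share over all genes (7.08%), with a median difference of 0.09. EGLN3, an oxygen-dependent prolyl hydroxylase that is itself a known target of hypoxia-inducible factor, read 7.98, 7.98 and 8.30 in large-follicle arrays, against 4.94, 4.93 and 6.01 in small-follicle arrays. It was 6.93-fold higher (2.79 ± 0.27, limma adjusted p = 0.00132) and passed in all 20 alternatives. The factor subunits HIF1A (13.36 ± 0.06 and 13.25 ± 0.03), EPAS1 (8.37 ± 0.19 and 7.69 ± 0.51) and ARNT (5.49 ± 0.15 and 5.42 ± 0.09, SD, n = 3 each) did not pass, nor did MYC at -0.31 ± 0.15. EGLN1 differed by 0.52 ± 0.14 with its groups 0.17 apart, and it narrowly did not pass (limma adjusted p = 0.052). EGLN2 differed by 0.03 ± 0.10. At an unadjusted p of 0.05 in limma, 4 of the 16 regulators were higher and 0 lower.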

How the data were processed

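Per the submitters' processing notes the authors made the deposited log2 signals with RMA. Its software was not given in the sources used here, nor were its settings. The table holds 24128 probe sets. After 112 control probe sets were left out, 24016 were tested, with values from 1.8 to 14.39 and array medians from 5.64 to 5.68. Gene symbols came from the platform annotation (13292 probe sets with 1 symbol, 86 with several, 10638 with none). All 35 gene identifiers matched RefSeq (ARS-UCD2.0) under the same symbol. The 35 genes have 55 tested probe sets, 1 in 25 genes and several in 10, and no filter on low values was used.

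Differences, large minus small follicles, came from lmFit and eBayes of limma 3.58.1 (R 4.3.3), with no block and 3 arrays per group, 2-sided, with Benjamini-Hochberg adjustment over all tested probe sets. The number of arrays limits the precision. Ratios of gene pairs were compared with an exact permutation test in python 3.11.15, and figures were drawn with matplotlib 3.10.9. The procedure was tested on simulated data. Members, gene lists and pairs were chosen with earlier results of these data known. Every member is named, and so is every called gene of the other lists. Genes of those lists named without a call, such as BSG, MPC1, ARNT and MYC, were chosen after their values were seen. Alternatives were a replicate block, left-out arrays, filters, scalings, array weights, priors, thresholds, other choices of probe set, and the RNA index as a covariate. An index without GAPDH was added after seeing the data. Correlations between arrays were 0.9927 to 0.9948 within groups and 0.9817 to 0.9879 across groups.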

Additional observations from a re-analysis of the deposited data

How the results depend on the processing

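In the 20 alternatives run, the 20 called genes kept their sign. With the RNA index as a covariate, 3 genes were called higher and 0 lower, with a median difference of 0.37. With the index without GAPDH, chosen after seeing the data, 3 were higher and 0 lower, with a median of 0.38. A threshold of 0.01 left 10 higher and 0 lower. Genes called lower, 2 as reported, were 1 with cyclic loess, 1 with the mean of a gene's probe sets, and 0 with the replicate block. Leaving out 1 array gave 13 to 18 higher, 0 to 1 lower and a median of 0.44 to 0.51. The other scalings, filters, weights and choices of probe set that were run left all 18 higher calls in place, and the trended robust prior left 17. Correlations of deviations between same-numbered arrays were -0.002, -0.054 and -0.343, so the replicate numbers were not taken to pair the arrays. The replicate block left 17 of the 18 higher calls. Leaving out 1 array also leaves fewer degrees of freedom, and the cause of other lost calls was not tested.

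The SLC2A1 to SLC2A3 shift of 0.04 was -0.01 with quantile scaling and -0.26 to 0.55 leaving out 1 array, and the ENO2 to ENO1 shift of 0.02 was -0.14 to 0.26 leaving out 1 array. Calls in other lists ranged from 0 to 6 lower around pyruvate (2 as reported), 0 to 2 higher (0) and 1 to 4 lower (3) in the side branches, and 1 to 3 higher (1) among regulators. Array number, the 3' to 5' difference and probe sets near background limit the rest.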
